A study of Homo sapiens with 32 samples.

Results

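The comparison described here set the 3 LNCaP lines that carry an inducible construct against the parental LNCaP line, all under vehicle, so that differences present without induction could be measured. It used 16 of the 32 libraries of the series: 4 of the parental line and 12 of the construct lines, with 4 replicates per line, chosen by their labels alone. LNCaP cells come from a prostate cancer that had spread to a lymph node, and they depend on androgen for growth. In each construct, called a MACC, a domain that binds DNA is fused with ERT2, the estrogen receptor's ligand binding domain mutated so that tamoxifen rather than estrogen releases the protein into the nucleus. The neutral MACC (LNCaP_3X) carries a 3X FLAG tag alone, the repressive MACC (KRAB) adds the KRAB silencing domain, and the activating MACC (VP64) adds the VP64 activation domain. All lines received ethanol vehicle for 48 h. The 3 construct lines were made with lentivirus, selected with blasticidin and kept in blasticidin at 3 µg/mL, whereas the parental line had neither virus nor drug. Each line is a single stable line. Virus, integration, drug, passage and the construct therefore cannot be told apart in any difference reported here, and the labels call the 4 libraries of a line biological replicates without naming separate cultures, so p-values measure the spread between these libraries.

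As background, a steroid receptor fused to ERT2 is bound by heat shock protein 90 chaperones until ligand arrives, and an uninduced fusion of this kind is expected to be held away from DNA, although some can reach the nucleus without ligand. In LNCaP cells androgen drives luminal secretory genes such as KLK3, which encodes prostate-specific antigen, and KLK2, from androgen response elements made of inverted AGAACA half-sites. The vehicle contrast shows how the construct lines differ from the parental line without tamoxifen.

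The vehicle libraries held 455008 to 669408 counts in the parental line and 470373 to 841629 in the construct lines, and 3688 genes had enough counts to be tested. The labelled cell type was checked with marker genes: the luminal genes KLK3, KLK2, FOLH1, HOXB13, KRT8 and KRT18 had counts in all 16 libraries, whereas KRT5 and TP63, basal markers, were at 0 in every one, the basal marker KRT14 had at most 3 counts and the sum of 3 neuroendocrine markers (CHGA, SYP and INSM1) reached at most 5 counts in a library. The mesenchymal markers VIM, COL1A1 and ZEB1 summed to 3 to 11 counts in the parental libraries and 4 to 24 in the construct libraries, mostly on ZEB1. Libraries differed in composition with the line: 2 pseudogene features took 4.13% to 8.34% of counts in the parental libraries and 8.60% to 20.7% in the construct libraries, with parental replicate 1 and activating replicate 3 (20.7%) apart from their groups. The part of this in the differences below was measured by leaving those features out, and by leaving those libraries out.

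A feature of the table limits what each gene name stands for. The libraries were made with a kit that marks strand, yet GAPDH drew only 0.250% to 0.517% of the counts that it and the feature opposite it (RP5-940J5.9) received together in a vehicle library. Among 380 pairs of a long noncoding RNA and a protein-coding gene that overlap exons on opposite strands and have at least 100 counts between them, the noncoding feature held more counts in 283 pairs. Features with an opposite-strand exon overlap held 82.0% of counts but were 23.0% of the genes in the annotation. The strand setting of the counting is not given in the sources used here. Which strand a count comes from is therefore not known for any gene, with or without such an overlap. For a gene whose exons overlap another gene on the opposite strand, the counts cannot be assigned to either RNA, so each such gene whose difference is described below is named with the gene opposite it, as the GENCODE annotation lifted to GRCh37 gives it.

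ESR1, the gene that encodes the estrogen receptor and supplies ERT2, separated the lines most. It had 1, 0, 0 and 0 counts in the 4 parental libraries, whereas the neutral libraries held 99 to 119, the repressive ones 68 to 126 and the activating ones 100 to 143. The 12 construct libraries lay far above the 4 parental ones, and their summed 1356 counts against 1 count correspond to a ratio of 352 per total count (95% exact interval 63.2 to 13932, covering counting error only). A difference among the construct lines was not called (adjusted p = 0.720, edgeR quasi-likelihood test), with means of 147 ± 13.7, 163 ± 25.2 and 175 ± 12.6 normalized counts (CPM after TMM scaling, SD, n = 4) in the neutral, repressive and activating lines.

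ZNF10, whose KRAB domain is widely used for silencing, had 16.5 to 29.8 normalized counts in the repressive libraries, 0 in the parental and neutral libraries and 1 count in a single activating library; its 61 repressive counts make it at least 17.2-fold higher than the parental line, taking the floor as 3 counts over the parental group.

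**Figure D1:**
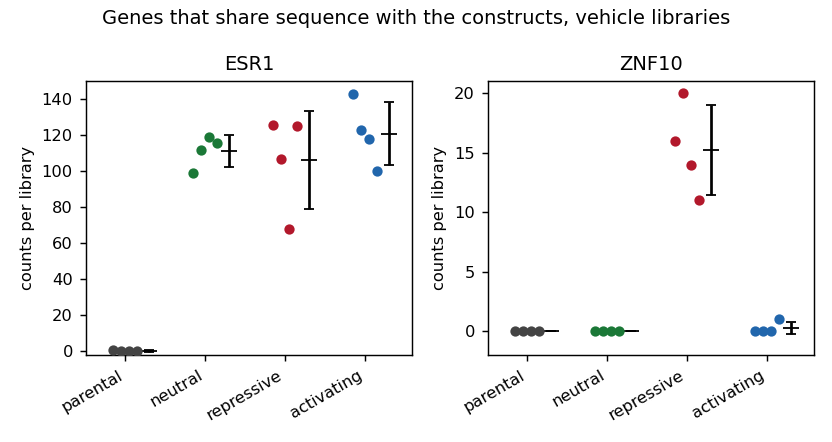
Counts per library (y axis) of ESR1 and ZNF10 in the 4 vehicle libraries of each line (x axis); points are libraries and the bar beside them is the mean with its SD. All 12 construct libraries lie above the 4 parental ones for ESR1, and ZNF10 is above 1 count only in the repressive line.

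The construct lines, taken as the average of the 3, differed from the parental line in 684 of the 3688 tested genes, with 348 higher (9.44%) and 336 lower (9.11%) by the quasi-likelihood test of edgeR with Benjamini-Hochberg adjustment at 0.05. Each line on its own gave a like number: 460 genes for the neutral line (12.5%; 220 higher and 240 lower), 535 for the repressive line (14.5%; 298 higher and 237 lower) and 497 for the activating line (13.5%; 265 higher and 232 lower). These 3 comparisons share the 4 parental libraries. The neutral count rested in part on single libraries, being 288 without neutral replicate 2 and 294 without parental replicate 3. Removing each library's trend with GC content, an alternative chosen after seeing the data, gave 767 genes and turned the split to 259 higher and 508 lower.

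Changes in the same direction in all 3 lines were called for 255 genes (6.91% of those tested), 116 of them higher and 139 lower. Without parental replicate 3 the number was 167, with the 2 abundant pseudogene features left out it was 279, and without the 2 libraries that stood apart from their groups in them (parental replicate 1 and activating replicate 3) it was 218; the latter 2 choices were made after seeing the data. Of the 255, 194 also had all 12 construct libraries on the same side of all 4 parental libraries, 83 above and 111 below. Over all tested genes, the libraries of 7.4% did not overlap in this way. The 255 genes were chosen from these same libraries, so a larger share among them follows from the choice and is no separate support. Because the shared comparisons use the same parental libraries, a deviation of those 4 libraries alone would also be called in all 3 lines, and the count by itself does not measure agreement of independent lines. The largest part of the shared changes was modest in size: 61 of the 255 exceeded a log2 difference of 1, with a median of 0.90 for the higher genes and -0.41 for the lower genes, beside a median of 0.04 over all genes tested.

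The shared lower genes were abundant, with a median of 448 counts per library against 53.1 for the higher genes and 26.5 for all genes tested, and when the tested genes were cut by mean count into 5 equal groups the most abundant group held 229 of the 336 lower calls but only 66 of the 348 higher calls. Of the 129 lower genes found in the annotation, 125 overlapped exons on the opposite strand (96.9%), most often of a protein-coding gene (120); for the 112 higher genes the number was 85 (75.9%), and over all tested genes the share was 78.3%. The median GC content of the longest transcript was 56.0% for the higher genes, 46.1% for the lower genes and 50.8% over all tested genes. After the GC trend of each library was removed, 217 of the 255 genes were still shared.

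**Figure D2:**
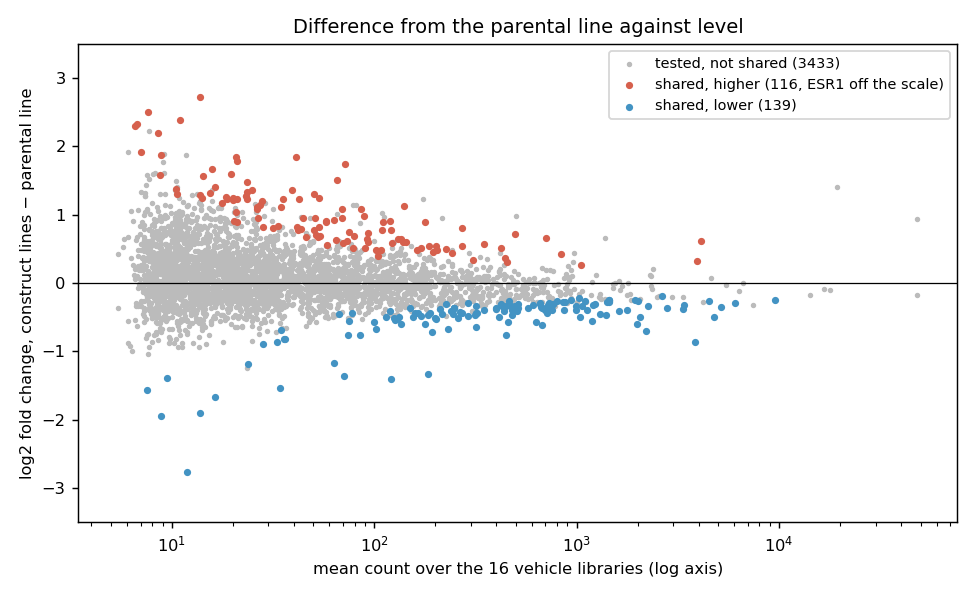
Log2 fold change of the construct lines over the parental line (y axis) against mean count over the 16 vehicle libraries (x axis, log scale), a point per tested gene; ESR1 lies off the scale and ZNF10 is left out because only the repressive line had it. Red points are the 116 genes higher in all 3 lines and blue points the 139 genes lower in all 3, which reach to higher mean counts.

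Among the higher genes, the best supported by the naming rule stood opposite other genes in most cases. RGL4, a guanine nucleotide exchange factor for Ral (chromosome 22 from 24030323 to 24041363, opposite the pseudogene GUSBP11), had 38.9, 46.3, 30.6 and 41.3 normalized counts in the parental libraries and 77.0 to 160 in the construct libraries, with a median of 119. The difference was 1.5 on the log2 scale (SE 0.16, adjusted p = 1.19e-08, edgeR), with 1.17 in the neutral, 1.76 in the repressive and 1.58 in the activating line. The difference among lines did not pass edgeR's test (adjusted p = 0.129).

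TBC1D10C and CARNS1 lie close together on chromosome 11. Each overlaps exon sequence, on the opposite strand, of PPP1CA, the gene of a protein phosphatase 1 catalytic subunit. TBC1D10C, which encodes a Rab GTPase-activating protein of lymphocytes, had 43.5, 26.5, 30.6 and 45.6 normalized counts in the parental libraries and 58.3 to 180 (median 131) in the construct libraries. CARNS1, carnosine synthase, had 8.27 to 16.02 in the parental and 27.3 to 48.8 in the construct libraries. Their log2 differences were 1.75 (SE 0.19) and 1.79 (SE 0.26). The parental and construct libraries did not overlap for either gene, and since both overlap PPP1CA their values cannot be taken as separate findings.

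METRN, which encodes meteorin, a secreted factor of neural and glial development, is described next among the genes of the naming rule without an opposite-strand exon, after ESR1 and the mitochondrial pseudogene MTND4P20. It lies on chromosome 16 from 765118 to 769655. Its parental libraries read 11.4, 19.8, 15.3 and 15.7 normalized counts, and the 12 construct libraries 29.9 to 57.6 with a median of 38.6. The log2 difference was 1.33 (SE 0.21, adjusted p = 2.35e-05, edgeR), and in raw counts the parental libraries held only 5 to 12 reads. CNNM3, a magnesium transport mediator opposite ANKRD23, and PPP1R16A, a regulatory subunit of protein phosphatase 1 opposite CTD-2517M22.14, rose by 1.47 and 1.36.

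MTND4P20, a nuclear copy of the mitochondrial gene MT-ND4 on chromosome 10, rose by 1.85 (SE 0.28, adjusted p = 1.39e-05, edgeR), and reads of such a copy may come from the mitochondrial gene. MT-ND4 itself, a subunit of respiratory complex I, had 529, 260, 309 and 583 normalized counts in the parental libraries and 570 to 1160 (median 869) in the construct libraries, groups that overlapped slightly. Of the 13 protein genes of the mitochondrial genome, all tested, 7 were higher (median 0.95), beside 9.44% and a median of 0.04 over all tested genes, and MT-ND4L, MT-CO2 and MT-ND4 were the 3 with the smallest adjusted p (0.00568, 0.00443 and 0.00319). For MT-ND4 the log2 difference was 1.18 in the repressive, 1.20 in the activating and 0.57 in the neutral line (adjusted p = 0.138), and a difference among the lines was not called (adjusted p = 0.402). In the neutral line MT-CO2 (adjusted p = 0.251, edgeR) and MT-ND4L (0.408) were not called either. No protein gene of the mitochondrial genome was a shared gene. MT-ND6, the protein gene on the other mitochondrial strand, gave a log2 difference of -0.28 (adjusted p = 0.173), and the share of mitochondrial counts was 0.878% to 1.37% in parental and 0.856% to 1.53% in construct libraries.

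Among the lower genes, C7orf49 (also CYREN, an inhibitor of end joining at DNA breaks) was the clearest. It lies on chromosome 7 from 134777115 to 134855547, opposite TMEM140. Parental libraries held 563, 486, 565 and 525 normalized counts, and the 12 construct libraries 197 to 247 with a median of 206, a narrow band that none of the parental libraries approached. The log2 difference was -1.33 (SE 0.07, adjusted p = 4.29e-15, edgeR), and -1.38, -1.24 and -1.36 in the neutral, repressive and activating lines, and a difference among the lines was not called (adjusted p = 0.831). TMEM140 itself, a membrane protein gene, fell by 0.27 on the log2 scale (SE 0.06).

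CCDC152, opposite SELENOP, which encodes the plasma selenium carrier selenoprotein P, was the most abundant of the named lower genes. It read 10283, 8489, 9130 and 8015 normalized counts in the parental libraries and 4214 to 5917 (median 4859) in the construct libraries, which did not overlap. The log2 difference was -0.86 (SE 0.06, adjusted p = 6.92e-13, edgeR). C18orf8, opposite NPC1, the lysosomal cholesterol exporter gene, fell by 1.36 on the log2 scale (175 to 240 normalized counts in the parental libraries and 58.6 to 106 in the construct libraries).

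RP11-704M14.1, opposite UGT2B11, a UDP-glucuronosyltransferase of the family that conjugates steroids, fell by 1.54 (SE 0.16) and gave the lowest value of the named genes, from 87.6 to 123 normalized counts in the parental libraries to 19.5 to 65.5 in the construct libraries. FLG, which encodes filaggrin and lies opposite FLG-AS1, fell by 1.41, from 324 to 394 down to 90.6 to 217. The noncoding features ACTA2-AS1 and RP11-1151B14.4 (opposite the kinase gene ALPK2) fell by 1.18 and 1.17. ACTA2 encodes smooth muscle actin. ACTA2-AS1 gave -1.72 in the neutral and -0.78 in the activating line, and a difference among the lines was not called (adjusted p = 0.139, edgeR).

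S1PR3, a sphingosine 1-phosphate receptor gene on chromosome 9 from 91605778 to 91620070, was the lowest of the shared genes without an opposite-strand exon. It had 77.8, 48.0, 70.0 and 74.1 normalized counts in the parental libraries and 27.0 to 45.0 (median 36.1) in the construct libraries. The difference of -0.90 (SE 0.17, adjusted p = 0.000281, edgeR) came with 34.5, 35.4 and 37.5 normalized counts on average in the neutral, repressive and activating lines. HERC3, a ubiquitin ligase gene known to respond to androgen, was abundant and fell by 0.38 (SE 0.05), from 5695 to 7070 normalized counts in the parental libraries to 4390 to 5178.

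The 31 shared genes without an exon opposite another gene have no second gene to name, although the strand of their reads is not known either. Of these, 27 were higher and 4 lower. Besides the genes named above, and chosen here after their values were seen, B3GALT6, a galactosyltransferase that builds the linker of proteoglycans, rose from 67.9 ± 7.24 normalized counts in the parental line to 178 ± 28.0, 125 ± 22.2 and 130 ± 7.49 (SD, n = 4) in the neutral, repressive and activating lines. All 12 construct libraries lay above the 4 parental ones, with a log2 difference of 1.08 (SE 0.13, adjusted p = 3.48e-07, edgeR). GULP1, an adaptor for the uptake of dying cells, was the most abundant of the higher protein-coding genes in this group, with 723 ± 125 normalized counts in the parental line and means of 1107, 1204 and 1123 in the construct lines (log2 difference 0.66, SE 0.13). LRRC8A, the essential subunit of the volume-regulated anion channel, rose by 0.69, FRMD8, a partner of the iRhom proteins, by 0.63, MXRA8, a membrane protein that some alphaviruses use for entry, by 0.54, and ANAPC2, the cullin subunit of the anaphase-promoting complex, by 0.49. None of these had overlapping groups. HRNR, which encodes hornerin and lies near FLG on chromosome 1, fell by 0.64, from 672 ± 76.1 normalized counts to means of 381, 462 and 457, and NAPEPLD, a phospholipase that makes N-acylethanolamines, fell by 0.51; in both the groups overlapped. When these features were fitted without any that has an opposite-strand exon, 15 of the 31 were still shared.

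Several abundant lower features stood opposite well-known genes and were likewise named after their values were seen. CERS6-AS1, opposite the ceramide synthase gene CERS6, fell from 4822 ± 606 normalized counts in the parental line to 2988 ± 238, 2897 ± 170 and 3014 ± 191 (SD, n = 4) in the neutral, repressive and activating lines. Its log2 difference was -0.70 (SE 0.06, adjusted p = 3.20e-10, edgeR), and all construct libraries lay below the parental ones. The feature opposite ALDH1A3, which makes retinoic acid, fell by 0.55 from a parental mean of 2392, and that opposite IL6ST, the signalling receptor subunit of the interleukin 6 family, fell by 0.67 from 499. MME-AS1, opposite the neprilysin gene MME, fell by 0.72 from 421, and the feature opposite NRIP1, a corepressor of nuclear receptors, fell by 0.50 from 229. Which of the overlapping genes these counts belong to cannot be told apart.

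**Figure D3:**
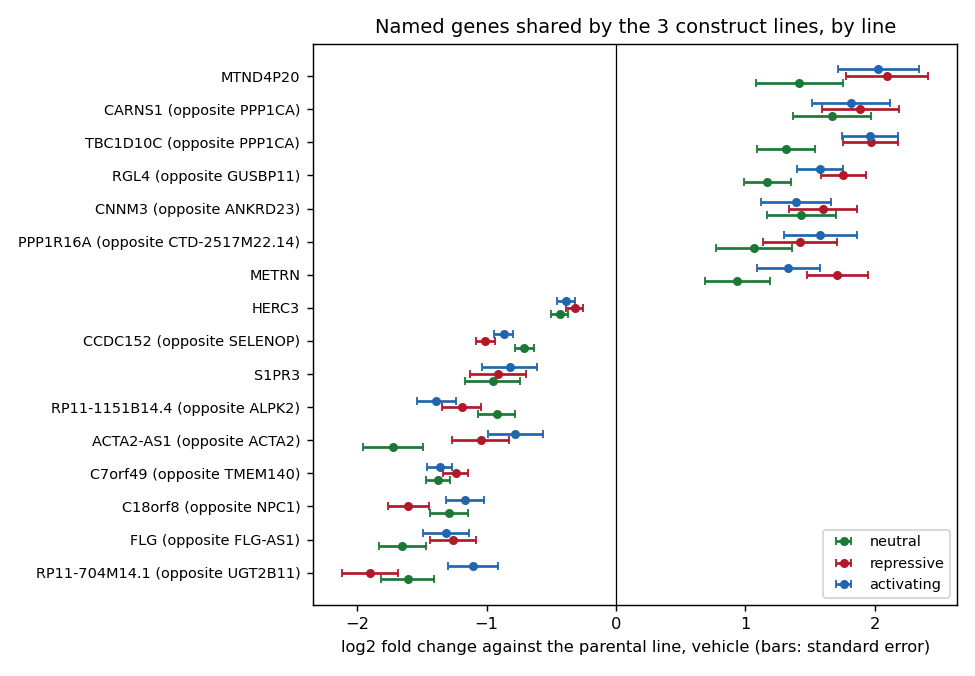
Log2 fold change against the parental line under vehicle (x axis) with its standard error for 16 genes of the naming rule other than ESR1, a dot per construct line; genes opposite another gene are marked so. Every dot lies on the same side of 0 in the 3 lines, as the rule required.

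**Figure D4:**
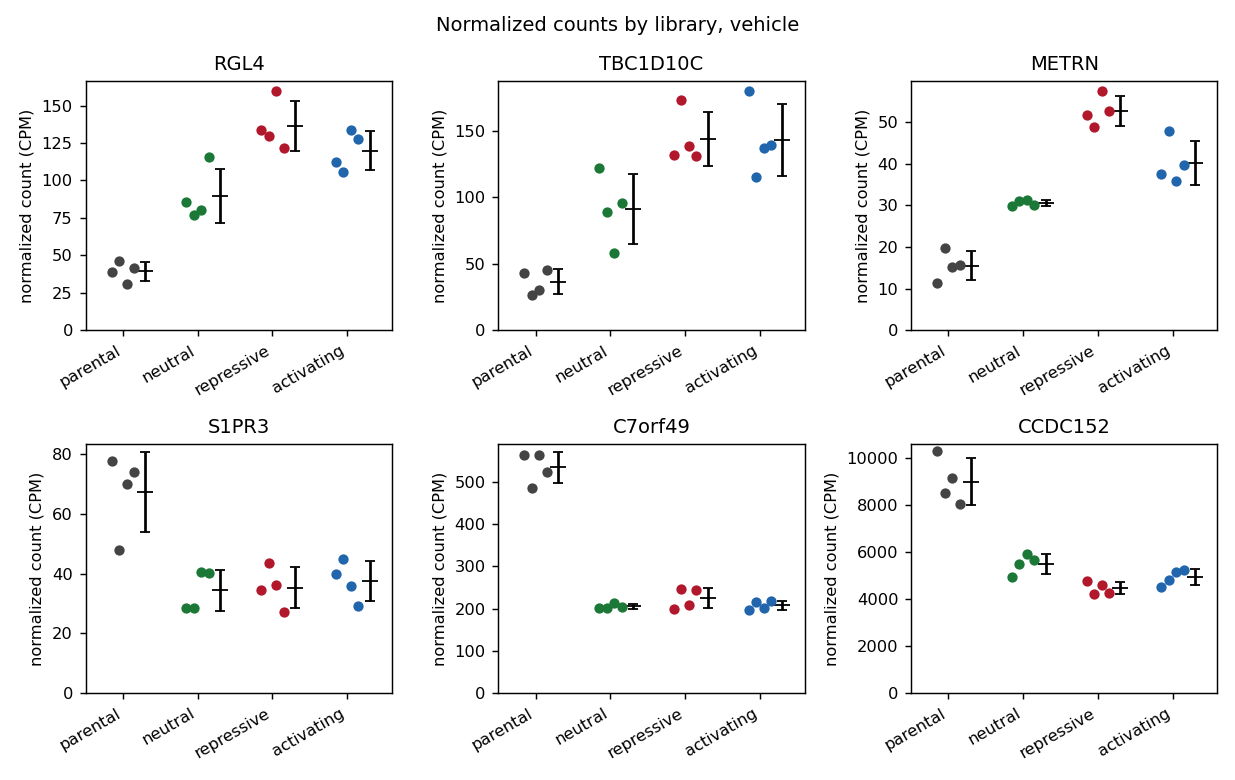
Normalized counts (y axis, CPM after TMM scaling) of 6 named genes in each of the 16 vehicle libraries, grouped by line on the x axis, with the mean and SD of each line beside the points. The parental libraries of RGL4, TBC1D10C and METRN lie below all construct libraries and those of S1PR3, C7orf49 and CCDC152 above them.

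Promoter sequences are shown for ESR1, METRN, S1PR3 and HERC3, which are shared genes of the naming rule, higher or lower. Their counts have no opposite gene to share with, and their promoter was in the table. Windows were taken from shared genes only, so KLK3, KLK2 and other named genes that were not shared have none here. Reads of the native ESR1 gene and of the construct cannot be separated, so the ESR1 window need not bear on its counts. Capitals mark an androgen response half-site. Each is the 250 bases upstream of the start of the gene in RefSeq (GRCh38.p14), 5′ to 3′ on the strand of the gene.
ESR1, chr6:151656422-151656671 (+): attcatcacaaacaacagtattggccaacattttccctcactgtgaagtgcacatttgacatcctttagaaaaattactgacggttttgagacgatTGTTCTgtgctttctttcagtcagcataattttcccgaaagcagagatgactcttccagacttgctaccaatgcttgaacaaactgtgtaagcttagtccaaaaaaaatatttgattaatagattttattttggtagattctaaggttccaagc
METRN, chr16:714868-715117 (+): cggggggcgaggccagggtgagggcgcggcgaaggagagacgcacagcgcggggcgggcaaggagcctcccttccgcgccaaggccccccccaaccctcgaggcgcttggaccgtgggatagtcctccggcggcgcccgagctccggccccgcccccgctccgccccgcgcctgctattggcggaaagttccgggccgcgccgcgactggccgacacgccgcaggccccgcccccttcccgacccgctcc
S1PR3, chr9:88990613-88990862 (+): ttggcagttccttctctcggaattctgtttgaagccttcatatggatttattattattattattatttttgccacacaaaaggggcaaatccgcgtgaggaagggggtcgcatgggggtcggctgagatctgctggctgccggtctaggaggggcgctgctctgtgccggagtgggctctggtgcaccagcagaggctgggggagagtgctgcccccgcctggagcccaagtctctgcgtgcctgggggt
HERC3, chr4:88523593-88523842 (+): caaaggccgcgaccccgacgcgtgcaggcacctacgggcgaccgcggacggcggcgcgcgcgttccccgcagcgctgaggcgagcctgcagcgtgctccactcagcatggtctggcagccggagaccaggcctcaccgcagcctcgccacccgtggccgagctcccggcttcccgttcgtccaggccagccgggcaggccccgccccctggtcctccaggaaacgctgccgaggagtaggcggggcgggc
The androgen response half-site AGAACA (searched on both strands, AGAACA or TGTTCT) was once in the ESR1 window, 154 bases before the start, and in none of the other 3, and the full element of 2 inverted half-sites 3 bases apart was in none of the promoters of the shared genes. Over RefSeq promoters of this length, 12.4% held a half-site and 0.00285% the full element. Of the shared genes, 55 higher and 40 lower genes had a promoter in the table, and the half-site was in 5 and 8 of them (9.09% and 20%), against 7.18% of the 1951 tested genes with a promoter. These counts are small and describe these windows only. The METRN, HERC3, S1PR3 and ESR1 windows had a GC content of 78.4%, 75.6%, 57.2% and 36%.

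Genes listed as androgen targets were called about as often as all tested genes. Of 30 listed targets 11 were tested, and 1 was higher and 1 lower, where 9.44% and 9.11% of all tested genes were (median -0.04, against 0.04 over all genes): SLC45A3, the prostate transporter gene prostein, rose by 0.83 (adjusted p = 0.0119, edgeR; lost without parental replicate 1) and HERC3 fell. KLK3 had a log2 difference of 0.21 (SE 0.22, adjusted p = 0.591) with 26.3 to 41.3 normalized counts in the parental and 23.5 to 74.2 in the construct libraries, and KLK2 one of 0.40 (SE 0.31, adjusted p = 0.425). FKBP5 (2 to 11 counts over the 16 vehicle libraries) and TMPRSS2 (2 to 13) did not pass the expression filter. Features opposite 5 other listed targets were tested, and 2 were lower, those opposite SORD (RP11-109D20.2, -0.61) and PLPP1 (SKIV2L2, -0.50), both shared by the 3 lines.

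HSP90AB1 and HSP90AA1 (opposite WDR20), which encode the cytosolic heat shock protein 90 chaperones, were lower in the average of the construct lines. They were the 2 called among 10 tested heat shock genes, where 9.11% of all tested genes were lower and 18.5% were called either way, and the median of the 10 was -0.09. HSP90AB1, with 50.3 to 94.3 normalized counts in the parental and 29.8 to 58.1 in the construct libraries, gave -0.71 (SE 0.19, adjusted p = 0.00694, edgeR), and HSP90AA1, 39.9 to 70.9 against 21.5 to 50.6, gave -0.64 (SE 0.19, adjusted p = 0.0152). Their groups overlapped in both cases. Neither was a shared gene, and only the repressive line was called on its own (adjusted p = 0.0146 for HSP90AB1 and 0.0105 for HSP90AA1, edgeR). The adjusted p was 0.0630 and 0.0931 in the neutral line, and 0.0644 and 0.231 in the activating line. Under tamoxifen the neutral line gave log2 differences of 0.13 and 0.12, which were not called (adjusted p = 0.801 and 0.845, edgeR). The call of HSP90AB1 was lost without parental replicate 2, and that of HSP90AA1 without parental replicate 1 or 2.

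Of the other lists, most had few tested members and few calls. VEGFA, the vascular growth factor, rose by 0.94 among 14 tested hypoxia and glycolysis genes (adjusted p = 0.0155; lost without parental replicate 2), and the feature opposite it, RP1-261G23.7, rose by 1.24. TYMS, thymidylate synthase, opposite ENOSF1 with a mean of 813 counts per library against 19.1 for TYMS, rose by 0.72 among 8 S phase genes (adjusted p = 0.0436) but the call was lost in 23 of 26 alternatives. GRHL2, an epithelial transcription factor gene of the luminal list opposite KB-1562D12.1, fell by 0.87, with log2 differences of -1.12 in the neutral, -1.15 in the activating and -0.33 (adjusted p = 0.462) in the repressive line. The other 9 lists with tested members (cytosolic ribosomal proteins, G2/M phase, unfolded protein response, mesenchymal, interferon, sterol synthesis, immediate early, neuroendocrine and p53 genes) held 84 tested genes, 58 of them for ribosomal proteins. Of the 84, 0 were called by edgeR or DESeq2 and 8 had an unadjusted p under 0.05 in edgeR. Over all tested genes 18.5% were called and 29.9% had such a p. Calls depended on level, with 51 of 741 genes called in the fifth of lowest mean count and 295 of 737 in the highest. Many of the 84 had low counts, so the absence of calls does not show that they were unchanged. No basal or metallothionein gene had enough counts to be tested. Among features opposite listed genes, those opposite MDM2 (p53 target, -0.61), CCNE2 (cyclin E2, -0.47), PDIA6 (-0.32) and ACTA2 fell and that opposite SLC7A11 (cystine transporter, 0.52) rose in all 3 lines. These names were picked after their values were seen.

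Some pairs of overlapping features moved against each other. In 8 pairs both features were shared genes, and in 4 of them the feature with fewer counts was higher and the one with more counts was lower: CIRBP-AS1 rose by 1.38 while CIRBP, a cold-inducible RNA binding protein gene, fell by 0.30, CYB561A3 rose by 0.64 while DAK (TKFC) fell by 0.44, SQSTM1, the autophagy receptor p62, rose by 0.59 while C5orf45 fell by 0.37, and SLC22A23 rose by 0.51 while PSMG4 fell by 0.40. In 3 pairs both were higher and in 1, C7orf49 and TMEM140, both were lower. Over the 659 pairs with both features tested, called or not, 224 were both higher and 156 both lower. In 184 the feature with fewer counts was higher and the other lower, and in 95 the reverse held. Opposite movement was therefore common over all pairs and is not particular to the 8. In the 659 pairs the feature with fewer counts had a median log2 difference of 0.12 and the feature with more counts -0.01. The part of such opposite movement in the calls above was not tested.

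The 3 construct lines differed from each other in 16 of the 3688 genes (0.434%; quasi-likelihood F test over the 12 construct libraries and the parental spread, 343 genes at an unadjusted p under 0.05), and in 13 of them the neutral line was highest. The smallest adjusted p belonged to ZNF10 and RP11-442H21.2, which had 8816 normalized counts in the neutral line against 5229 and 5867 in the repressive and activating lines and 4204 in the parental line. Others were the feature opposite VEGFA, with 106 ± 19.1 in the neutral line against 57.3 ± 20.6 and 53.4 ± 7.23 (SD, n = 4), GDF15, a stress-responsive cytokine gene (44.8 against 14.0 and 28.3), and the feature opposite GAPDH (30974 against 23328 and 25160). The count was 34 without parental replicate 1 and 10 without neutral replicate 4. By DESeq2's likelihood ratio test it was 40.

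The tamoxifen libraries of the parental and neutral lines played no part in choosing the 255 genes. Here the neutral construct is induced, and the 8 libraries were fitted separately with the same 3688 genes. Of these, the neutral line was higher in 133 (3.61%) and lower in 133 (3.61%). Of the 116 shared higher genes, 26 were called higher (22.4%) and 1 lower, and 94 had a log2 difference above 0, with a median of 0.33. Of the 139 shared lower genes, 55 were called lower (39.6%) and 1 higher, 116 had a difference below 0, and the median was -0.21, beside 0.00 over all genes. The shared lower and higher genes had medians of 448 and 53.1 counts per vehicle library, against 26.5 over all tested genes. The 3.61% is therefore not a share over genes of like level.

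Among the named genes reported here, a difference in the same direction was called under tamoxifen for ESR1, FLG (-1.39), C18orf8 (-1.33), RP11-704M14.1 (-1.63), CCDC152 (-0.34) and HERC3 (-0.21, adjusted p = 0.0281). VEGFA, which was not among the shared genes under vehicle, was also called higher under tamoxifen (0.99, SE 0.26, adjusted p = 0.0239, edgeR). C7orf49 was not called (621 ± 10.7 normalized counts in the parental and 609 ± 53.02 in the neutral line, SD, n = 4, log2 difference -0.03, SE 0.07, adjusted p = 0.881), and neither S1PR3 (-0.24, adjusted p = 0.569), TBC1D10C (0.37, adjusted p = 0.424), CARNS1 (-0.19, adjusted p = 0.832) nor METRN (0.29, adjusted p = 0.721) was called. RGL4 (0.75, adjusted p = 0.0761, edgeR), MTND4P20 (1.27, 0.0813), PPP1R16A (0.69, 0.137) and CNNM3 (0.70, 0.258) were not called either. The same held for ACTA2-AS1 (-0.58, 0.0817) and RP11-1151B14.4 (-0.30, 0.212). Under vehicle, C7orf49 had 205 ± 6.13 normalized counts (SD, n = 4) in the neutral line, and the vehicle and tamoxifen sets of libraries were scaled separately. Without neutral tamoxifen replicate 3 or parental tamoxifen replicate 2 the total count of calls was 149 or 176 in place of 266.

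**Figure D5:**
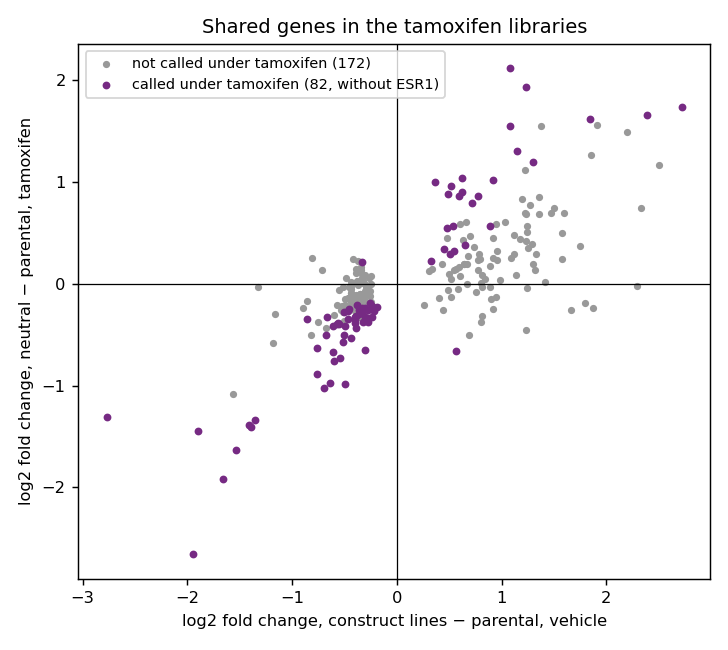
Log2 fold change of the neutral line over the parental line in the 8 tamoxifen libraries (y axis) against that of the construct lines over the parental line in the vehicle libraries (x axis) for the 254 shared genes other than ESR1. Purple points (82) were called under tamoxifen; most of them differ in the same direction on both axes.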

How the data were processed

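RNA was measured in 16 vehicle libraries and, for the check in samples outside the choice of genes, 8 tamoxifen libraries (2.5 µM, 48 h). The authors made stranded mRNA libraries, ran the nf-core RNA-seq pipeline with GRCh37 and Salmon 1.9.0 (the labels also list DESeq2 1.28.0), and deposited estimated counts of 57773 genes without normalization. Annotation release and strand setting are not given in the sources used here.

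Estimated counts were rounded. In edgeR 4.0.16 (R 4.3.3), genes passed filterByExpr over the 4 vehicle groups, libraries were scaled by TMM, a mean per line was fitted by glmQLFit (robust), and glmQLFTest p-values received Benjamini-Hochberg adjustment at 0.05. A gene was shared when called in the same direction in all 3 lines. SE is the log2 fold change over the square root of F. Positions and overlaps come from GENCODE lifted to GRCh37, which held 96.1% of genes and 94.0% of counts.

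Members, lists and tests were chosen with earlier results of these data known. Named genes were, among 175 shared genes averaging 20 counts or more whose construct and parental libraries were separate, the 8 highest and 8 lowest and the 4 highest and 4 lowest without an opposite-strand exon; ESR1, ZNF10, C7orf49, KLK3, KLK2, FKBP5 and TMPRSS2; and per list the 3 called genes of smallest adjusted p. Any other gene was picked with its values known. Some genes of the rule and marker lists are not reported here.

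In simulated counts for the average contrast (3535 genes tested), edgeR recovered 83 of 100 genes changed by 1 and 34 of 100 changed by 0.5 (log2), with 5 false calls. The rule for shared genes recovered fewer, 63 of 100 and 19 of 100, with 0 false calls. All 24 replicate pairs within lines differed by more than counting noise (chi-square per gene 1.48 to 14.3). Alternatives were DESeq2 1.42.0, its size factors, other filters, features left out, thinning, a replicate block and leaving out libraries; removal of GC trends, of 2 libraries together and of 2 pseudogene features was chosen after seeing the data.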

Additional observations from a re-analysis of the deposited data

Results flagged for a closer look

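Among 120 groups of 4 libraries for named genes and 24 for library measures, 9 had a library far from the other 3 by Dixon's criterion, and chance alone flags about 1 in 20. For ESR1 the parental library with 2.29 normalized counts and for ZNF10 the activating library with 1.72 hold 1 count each. MT-CO2 was 236 in repressive replicate 4 against 221 to 222 in the others. TYMS was 32.4 in neutral replicate 2 against 19.5 to 21.7 and 39.2 in activating replicate 3 against 33.7 to 34.5. HSP90AA1 was 50.6 in activating replicate 2 against 33.0 to 35.9, and GRHL2 was 30.7 in activating replicate 1 against 12.6 to 13.8. The share of 2 pseudogene features was 8.34% in parental replicate 1 against 4.13% to 4.71%, and GAPDH held 0.357% of the counts it shares with its opposite feature in activating replicate 2 against 0.404% to 0.412%. The ZNF10 difference from the parental line differed among the 3 lines (adjusted p = 3.20e-06, edgeR), with 11 to 20 counts in repressive and at most 1 in other vehicle libraries.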

How the results depend on the processing

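Of 175 alternative values of the gene counts, 157 stayed within 1.5 times the reported one, and no log2 difference of a named gene reversed. Among the 770 features without an opposite-strand exon, the counts were 90 for the construct average, 40, 69 and 60 for the neutral, repressive and activating lines, 21 shared (15 of the 31 shared genes that could be tested there) and 8 among lines, with fewer genes tested by construction. The count among lines was 40 with DESeq2, 48 without a filter and 32 with GC trends removed, and the activating count was 313 when fitted with the parental line alone (8 libraries); the cause was not tested for these. GC removal, chosen after seeing the data, moved the shared split to 83 higher and 234 lower. Leaving out 1 library gave 288 to 487 genes for the neutral line, 167 to 271 shared, 10 to 34 among lines and 149 to 280 under tamoxifen. Without a filter the median log2 difference of all genes was 0.32, against 0.04 with it. Of the named genes, TYMS, VEGFA, SLC45A3, HSP90AA1 and HSP90AB1 lost their call in at least 1 alternative. The replicate block gave 232 shared genes and 149 genes under tamoxifen in place of 266. Same-numbered libraries of different lines deviated together weakly (r from -0.40 to 0.32, 7 of 24 pairs above 0.1), so the numbers were not taken as pairs, and 4 of 16 libraries correlated best with their own number. Depth limits the genes tested: 21647 genes had a count and 3688 were tested.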
